A study of Mus musculus with 8 samples.

Results

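The genes of the elastic fibre were examined in the ventral prostate of mice that overexpress human SKP2 in the prostate. They were taken by symbol from a table of 36333 genes and numbered 10, namely Eln, Fbn1, Mfap4, Mfap5, Ltbp2, Fbln1, Fbln2, Fbln5, Lox and Loxl1. RNA from the ventral lobes of 8 mice, all 12 months old and on the FVB/N background, was sequenced as one library for each mouse. The 4 hSKP2-KI mice carry the coding sequence of human SKP2, a subunit of a ubiquitin ligase that marks cell cycle inhibitors for degradation, joined through a P2A peptide to exon 1 of the endogenous mouse probasin gene, Pbsn. The 4 WT mice carry no insertion. The probasin promoter is active in prostate epithelium, whereas elastic fibre genes are mainly expressed in stroma, and the labels do not say which of the knock-in lines the sequenced mice came from. Pbsn itself was between 93.0 and 174 TPM in hSKP2-KI mice and at least 3980 TPM in every WT mouse.

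Elastic fibres give tissues their stretch and recoil. Each fibre has a core of cross-linked elastin that is laid down on a scaffold of fibrillin microfibrils. Microfibril-associated glycoproteins, latent TGF-beta binding proteins and fibulins decorate the scaffold and guide elastin onto it, and lysyl oxidases form the cross-links. In the prostate such fibres lie in the fibromuscular stroma around the ducts and in vessel walls.

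All 10 elastic fibre genes had a higher mean level in hSKP2-KI than in WT ventral prostates, and 9 of them passed the test. Levels were in TPM, which divide the reads on a gene by its length and scale each library to the same total, so levels of different genes can be compared. A gene was tested when it had at least 1 TPM in at least 4 of the 8 samples, which held for all 10 genes and for 13080 genes in the table. It was called when limma on log2(TPM + 1) gave a Benjamini-Hochberg adjusted p under 0.05. The 1 gene that was not called was Lox, and 0 of the 10 were lower. Of all tested genes, 32.7% were called higher and 1.23% lower, so a higher TPM was common in these samples. The summed TPM of the 10 genes was 151, 311, 188 and 151 in hSKP2-KI mice 1 to 4 and 69.1, 122, 98.6 and 97.3 in WT mice 1 to 4. The genotypes did not overlap, and hSKP2-KI mouse 2 stood above the rest with the highest level of each of the 10 genes. The means were 200.1 ± 76.1 and 96.8 ± 21.7 TPM (SD, n = 4 each), a 2.07-fold difference. Without hSKP2-KI mouse 2 the hSKP2-KI mean was 163 ± 21.4 TPM (SD, n = 3) and the difference 1.69-fold.

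**Figure D1:**
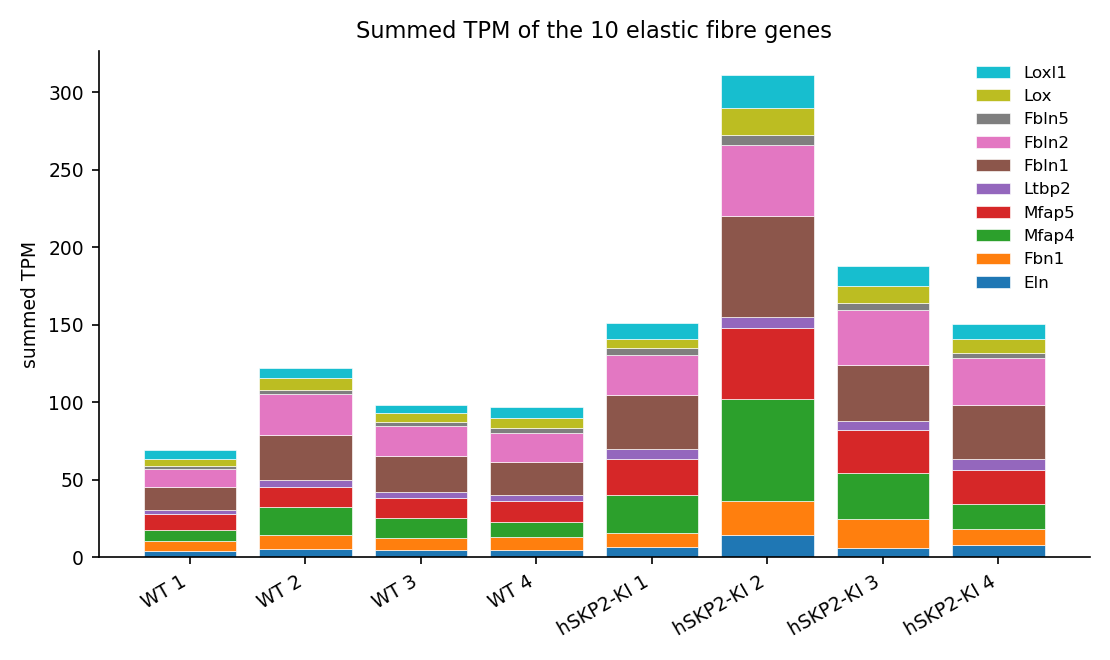
Summed TPM of the 10 elastic fibre genes in each ventral prostate, with the bar of each mouse divided by gene and the vertical axis starting at 0. The 4 WT bars reach 69.1 to 122 TPM and the 4 hSKP2-KI bars 151 to 311 TPM, with hSKP2-KI mouse 2 the tallest.

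A typical gene was also higher in hSKP2-KI mice in the deposited TPM, with a median log2 fold change of 0.23 over the tested genes. TPM have a fixed total, of which the secretory genes of the ventral prostate take a large part, and these were lower in hSKP2-KI mice (values below with the other markers). Median-ratio scaling, which sets the typical gene equal between samples, brought that median to -0.01 and left 6.92% of tested genes called higher and 4.25% lower, 905 and 556 genes in place of 4272 and 161. Under this scaling all 10 log2 fold changes were positive, and 2 genes, Mfap5 and Ltbp2, were called. The calls of the other 7 were lost. The median log2 fold change of the 10 genes was 0.82 as deposited and 0.56 after median-ratio scaling. The genotypes did not overlap for 7 of the 10 genes as deposited, where 34.0% of tested genes lay wholly above, and for 5 of the 10 after scaling, where 10.3% did.

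**Figure D2:**
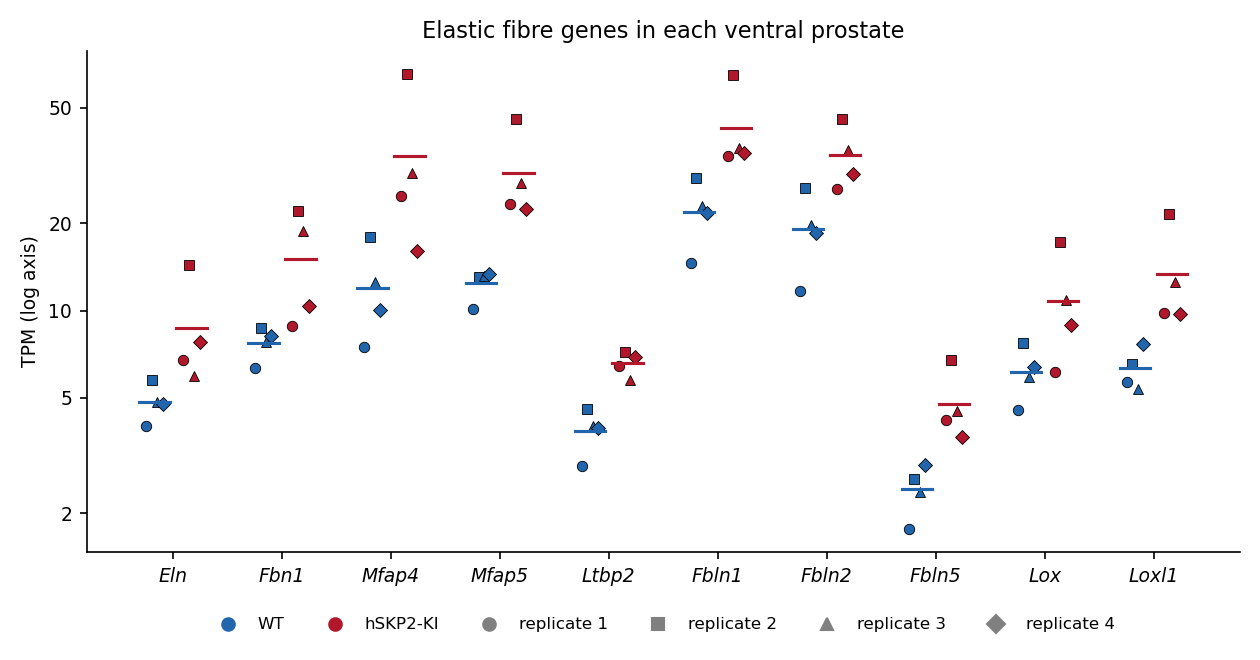
TPM of each elastic fibre gene in the 4 WT (blue) and 4 hSKP2-KI (red) ventral prostates on a log axis, where the symbol gives the replicate number and the horizontal line the mean. The square of hSKP2-KI mouse 2 is the highest point for every gene, and the genotypes overlap for Mfap4, Fbln2 and Lox.

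Eln (Entrez 13717, chr5:134702595-134747368, minus strand, GRCm38.p6) encodes tropoelastin, the soluble precursor of the elastin core. Its level was 6.75, 14.4, 5.95 and 7.76 TPM in hSKP2-KI mice 1 to 4 and 4.01, 5.75, 4.85 and 4.76 TPM in WT mice 1 to 4. The genotypes did not overlap, but hSKP2-KI mouse 3 was close to WT mouse 2. For Eln the log2 fold change was 0.67 (standard error 0.22, limma adjusted p = 0.0371), and after median-ratio scaling it was 0.44 with an adjusted p of 0.204. Without hSKP2-KI mouse 2 the log2 fold change on the deposited TPM was 0.42. The call on the deposited TPM was lost when hSKP2-KI mouse 4 or WT mouse 1, 3 or 4 was left out (adjusted p from 0.0621 to 0.0954). An antisense gene, Gm30003, overlaps Eln, and how the reads were counted by strand is not given in the sources used here, so the 2 transcripts may not be separated. The same holds for the antisense D030025P21Rik in Ltbp2, AC161119.1 in Lox, and the opposite-strand Gm9913 in Fbn1 and Mapk7 in Mfap4.

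All 4 microfibril genes were called higher in the deposited TPM, and their sum was 85.5 ± 38.5 TPM in hSKP2-KI and 36.0 ± 7.17 TPM in WT mice (SD, n = 4 each). Fbn1 (Entrez 14118, chr2:125300594-125506485, minus strand) encodes fibrillin-1, the main building block of the microfibril. It was at 8.84, 22.1, 18.8 and 10.4 TPM in hSKP2-KI mice 1 to 4 and at 6.35, 8.74, 7.76 and 8.15 TPM in WT mice 1 to 4. Mice 2 and 3 of the hSKP2-KI group were far above WT, while mouse 1 exceeded the highest WT value only narrowly. Fbn1 differed by a log2 fold change of 0.79 (standard error 0.24, limma adjusted p = 0.0312), or 0.54 with an adjusted p of 0.170 after median-ratio scaling. Without hSKP2-KI mouse 2 or 3, or without WT mouse 1, 3 or 4, Fbn1 was not called on the deposited TPM (adjusted p from 0.0520 to 0.0836).

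Mfap4 (Entrez 76293, chr11:61485431-61488708, plus strand) encodes a glycoprotein that binds elastin and fibrillin, and it had the largest log2 fold change of the 10 genes and the widest spread. Its level was 24.8, 65.7, 29.7 and 16.1 TPM in hSKP2-KI mice 1 to 4, and 7.50, 17.9, 12.6 and 10.0 TPM in WT mice 1 to 4. Mouse 4 of the hSKP2-KI group lay below WT mouse 2, so the genotypes overlapped. This gave a log2 fold change of 1.31 (standard error 0.36, limma adjusted p = 0.0205), and 1.06 with an adjusted p of 0.0878 after median-ratio scaling. Leaving out WT mouse 1 gave an adjusted p of 0.0626 on the deposited TPM.

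Mfap5 (Entrez 50530, chr6:122513584-122529290, plus strand) encodes the microfibril-associated glycoprotein MAGP-2, which binds fibrillin. Its level was 23.4, 45.8, 27.5 and 22.4 TPM in hSKP2-KI mice 1 to 4 and 10.1, 13.0, 13.2 and 13.3 TPM in WT mice 1 to 4. Every hSKP2-KI mouse was well above every WT mouse. Its log2 fold change was 1.15 (standard error 0.20, limma adjusted p = 0.00319), and the call held after median-ratio scaling at 0.89 (standard error 0.19, adjusted p = 0.0187). With median-ratio scaling and hSKP2-KI mouse 2 left out together, Mfap5 was the 1 gene of the 10 that was called, with a log2 fold change of 0.68 and an adjusted p of 0.00882.

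Ltbp2 (Entrez 16997, chr12:84783212-84876558, minus strand) encodes a latent TGF-beta binding protein that, unlike its relatives, does not bind latent TGF-beta and associates with fibrillin microfibrils. It was at 6.41, 7.19, 5.76 and 6.91 TPM in hSKP2-KI mice 1 to 4 and at 2.91, 4.57, 4.00 and 3.93 TPM in WT mice 1 to 4. Ltbp2 varied little among hSKP2-KI mice, and hSKP2-KI mouse 2 did not stand apart for it. Its log2 fold change was 0.65 (standard error 0.13, limma adjusted p = 0.00545), and 0.43 (standard error 0.10, adjusted p = 0.0250) after median-ratio scaling.

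The 3 fibulins were also higher in hSKP2-KI mice, with a summed level of 81.7 ± 24.2 TPM compared to 43.5 ± 12.2 TPM in WT mice (SD, n = 4 each). Fbln1 (Entrez 14114, chr15:85205949-85286294, plus strand) encodes fibulin-1, which is found within the elastin core and in basement membranes. It was at 34.3, 64.8, 36.3 and 35.0 TPM in hSKP2-KI mice 1 to 4 and at 14.6, 28.7, 22.9 and 21.7 TPM in WT mice 1 to 4. Apart from mouse 2, the hSKP2-KI mice were close to each other and all were above WT. The log2 fold change was 0.91 (standard error 0.22, limma adjusted p = 0.0134), and 0.65 with an adjusted p of 0.0723 after median-ratio scaling. Fbln2 (Entrez 14115, chr6:91212460-91272540, plus strand) encodes fibulin-2, which sits at the border of the elastin core and the microfibrils. It was at 26.3, 45.7, 35.8 and 29.7 TPM in hSKP2-KI mice 1 to 4 and at 11.6, 26.5, 19.7 and 18.5 TPM in WT mice 1 to 4. The genotypes touched, because hSKP2-KI mouse 1 was just below WT mouse 2. Its log2 fold change was 0.84 (standard error 0.22, limma adjusted p = 0.0174), and 0.58 with an adjusted p of 0.0877 after median-ratio scaling. Fbln5 (Entrez 23876, chr12:101746565-101819119, minus strand) encodes fibulin-5, which brings tropoelastin to the microfibril, and it had the lowest level of the 10 genes in both genotypes. It was at 4.19, 6.76, 4.50 and 3.66 TPM in hSKP2-KI mice 1 to 4 and at 1.76, 2.63, 2.36 and 2.93 TPM in WT mice 1 to 4. All hSKP2-KI mice were above all WT mice, and the log2 fold change was 0.74 (standard error 0.17, limma adjusted p = 0.0105). After median-ratio scaling it was 0.54 with an adjusted p of 0.0550.

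Among the lysyl oxidases, Loxl1 was called and Lox was not. Loxl1 (Entrez 16949, chr9:58287723-58313212, minus strand) encodes the lysyl oxidase-like enzyme that fibulin-5 holds at sites of elastin deposition. It was at 9.78, 21.6, 12.6 and 9.70 TPM in hSKP2-KI mice 1 to 4 and at 5.69, 6.54, 5.35 and 7.67 TPM in WT mice 1 to 4. The genotypes did not overlap. Its log2 fold change was 0.92 (standard error 0.22, limma adjusted p = 0.0113), and 0.68 with an adjusted p of 0.0679 after median-ratio scaling. Lox (Entrez 16948) encodes lysyl oxidase, which oxidizes lysines of both elastin and fibrillar collagens. It was at 6.16, 17.2, 10.9 and 8.94 TPM in hSKP2-KI mice 1 to 4 and at 4.55, 7.71, 5.90 and 6.36 TPM in WT mice 1 to 4. Mouse 1 of the hSKP2-KI group fell within the WT range, and the other 3 were above it. The log2 fold change was 0.66 (standard error 0.24, limma adjusted p = 0.0566), and 0.43 with an adjusted p of 0.268 after median-ratio scaling. With hSKP2-KI mouse 1 or WT mouse 2 left out, Lox was called (adjusted p = 0.0158 and 0.0479).

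The promoters of 5 of these genes, Fbn1, Ltbp2, Fbln1, Fbln2 and Fbln5, were in the RefSeq table for GRCm38.p6, with 7 windows of 250 bases before an annotated start of transcription. The windows of Fbln5 and Fbln1 shown here end where the gene's RefSeq span begins, and are given so that the matches described next can be seen in 2 genes of one family with the same direction. They hold 65.2% (Fbln5) and 46.4% (Fbln1) G and C, against a median of 52.4% over all 32851 windows of the table. The second window of each gene has the opposite order, with 49.6% for Fbln5 and 62.4% for Fbln1. Capitals mark matches to GGGCGG, the GC box bound by Sp factors, or to CAGAC, a SMAD-binding element, each searched on both strands.
Fbln5, chr12:101819120-101819369, minus strand: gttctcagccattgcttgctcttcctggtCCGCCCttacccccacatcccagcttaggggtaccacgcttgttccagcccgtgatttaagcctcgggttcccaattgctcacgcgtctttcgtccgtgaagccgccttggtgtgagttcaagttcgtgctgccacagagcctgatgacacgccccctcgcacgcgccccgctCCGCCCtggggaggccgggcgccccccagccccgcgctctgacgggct
Fbln1, chr15:85205699-85205948, plus strand: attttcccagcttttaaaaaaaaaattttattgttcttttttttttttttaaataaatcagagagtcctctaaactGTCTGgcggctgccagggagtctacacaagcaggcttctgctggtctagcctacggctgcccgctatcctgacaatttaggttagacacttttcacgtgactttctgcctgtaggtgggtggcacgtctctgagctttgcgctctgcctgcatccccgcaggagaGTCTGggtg

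The GC box was in 5 of the 7 windows, at least 1 for each of the 5 genes, and in 32.7% of all windows of the table. CAGAC was in 4 of the 7 windows, belonging to 3 genes, and in 42.2% of all windows, but the windows of Fbln1 overlap and hold the same 2 matches. No window held TATAAA (12.4% of all windows), the AP-1 motif TGANTCA (6.75%), the TEAD motif GGAATG (12.6%) or a CArG box (1.47%). Each motif was counted on its own. These are matches of letters in short windows and say nothing of binding.

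The log2 fold changes of 8 of the 10 genes lay between 0.65 and 0.92, with Mfap5 and Mfap4 above, and the order of the genes by level was nearly the same in both genotypes. In WT mice the order of mean TPM was Fbln1, Fbln2, Mfap5, Mfap4, Fbn1, Loxl1, Lox, Eln, Ltbp2 and Fbln5, from 22.0 ± 5.79 to 2.42 ± 0.500 TPM (SD, n = 4). In hSKP2-KI mice Mfap4 stood before Mfap5 and the other places were unchanged, from 42.6 ± 14.8 to 4.78 ± 1.37 TPM (SD, n = 4). The ranges of neighbours in this order overlapped throughout in WT mice. In hSKP2-KI mice 1 step had no overlap, that from Mfap5 (lowest 22.4 TPM) to Fbn1 (highest 22.1 TPM). Eln was the third lowest of the 10 in both genotypes.

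As a share of the summed TPM of the 10 genes, Fbln1 held 21.5% ± 1.81 in hSKP2-KI and 22.5% ± 1.09 in WT mice (SD, n = 4 each). Eln held 4.35% ± 0.842 and 5.08% ± 0.488. Shares did not overlap between genotypes for 2 genes. Mfap5 held 15.5%, 14.7%, 14.6% and 14.9% of the sum in hSKP2-KI mice 1 to 4, above the 14.6%, 10.7%, 13.4% and 13.7% of WT mice 1 to 4. The lowest hSKP2-KI share, of mouse 3, and the highest WT share, of mouse 1, were almost equal. Lox held 4.08%, 5.53%, 5.80% and 5.94% in hSKP2-KI mice 1 to 4, below the 6.59%, 6.32%, 5.99% and 6.54% of WT mice 1 to 4. These shares are descriptions, with no test.

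Levels were also taken relative to Eln in the same sample, which removes a scaling of the library except for the effect of the added 1. By limma with Benjamini-Hochberg adjustment over all genes, 0 of the other 9 genes were then called higher and 0 lower. Of all tested genes, 0.428% were called higher and 2.13% lower on this measure. The genotypes differed in log2 level over Eln by -0.02 for Ltbp2 to 0.64 for Mfap4. In this fit limma took the spread as known (infinite prior degrees of freedom). In place of a gene's own spread it used one common to genes of like level. Its p was smaller than that from the gene's own spread for Mfap4, which varied widely, and larger for Mfap5, so intervals here use each gene's own spread. How many of all tested genes lacked overlap between genotypes in level over Eln was not counted, so the next value has no background. Mfap5 was the 1 gene of the 9 whose level over Eln did not overlap between genotypes, at 1.65, 1.61, 2.04 and 1.42 log2 units in hSKP2-KI mice 1 to 4 and 1.15, 1.05, 1.28 and 1.32 in WT mice 1 to 4. Its difference was 0.48 (95% interval 0.13 to 0.83), and a two-sided exact permutation test gave p = 0.0286, the smallest that 4 mice against 4 allow. Adjusted over all genes, its p was 0.256 in limma and 0.314 with its own spread. For Mfap4 the interval was -0.14 to 1.42 (exact permutation p = 0.0857, limma unadjusted p = 0.0283), and 1 gene, Mfap4, had an unadjusted limma p under 0.05. The other 7 intervals each held 0 and together reached from -0.55 to 0.80, so unequal change was not detected for these genes. With 4 mice per genotype, differences of a size within each gene's interval are not excluded.

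Markers of fibroblasts and smooth muscle cells, which make elastic fibres, were also higher in hSKP2-KI mice, which bears on every value above. The summed TPM of 10 fibroblast markers was 805 to 1389 in hSKP2-KI and 442 to 628 in WT mice, and 8 of the 10 were called higher as deposited and 4 after median-ratio scaling. The summed TPM of 8 smooth muscle markers was 3089 to 4722 compared to 2083 to 2626, with 8 of 8 called as deposited and 4 after scaling. The mean log2 level of the fibroblast markers differed by 0.91 between genotypes and that of the elastic fibre genes by 0.86, or by 0.66 and 0.62 after median-ratio scaling. The markers were uneven, with log2 fold changes as deposited from 0.37 (Twist2) to 1.81 (Lum). Their median was 0.88, compared to 0.82 for the elastic fibre genes. Relative to the mean of the 10 markers, limma called Lum itself higher (0.90) and Twist2 lower (-0.53). Levels relative to this mean depend on the markers chosen, and leaving out Lum was not tried. In bulk tissue, more cells of a type and more RNA per cell cannot be told apart. Mouse 2 of the hSKP2-KI group was the highest of the 8 for all 10 fibroblast markers as well as all 10 elastic fibre genes, and for 27.5% of all tested genes. WT mouse 1 was the lowest for 9 of the 10 elastic fibre genes, for 9 of the 10 fibroblast markers and for 51.4% of all tested genes.

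Relative to the mean of the fibroblast markers in the same sample, 0 of the 10 elastic fibre genes were called in either direction by limma with Benjamini-Hochberg adjustment. On this measure 0.772% of all tested genes were called higher and 80.9% lower, or 0.229% and 69.9% with each gene's own spread. The differences ranged from -0.26 for Ltbp2 to 0.40 for Mfap4 on the log2 scale, with a median of -0.09, and the genotypes overlapped for all 10. At an unadjusted limma p under 0.05, 1 gene was higher, Mfap4, with an adjusted limma p of 0.0593. In hSKP2-KI mice 1 to 4 the level of Mfap4 relative to the markers was -0.14, 0.45, -0.11 and -0.95 log2 units, and in WT mice 1 to 4 it was -0.91, -0.16, -0.46 and -0.84. Mouse 4 of the hSKP2-KI group had the lowest value of all 8 mice, and the interval from the gene's own spread was wide, from -0.42 to 1.23 (exact permutation p = 0.286). Mfap5 was higher by 0.24 (95% interval from just under 0 to 0.48, exact permutation p = 0.0857), with hSKP2-KI mouse 4 alone inside the WT range.

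Fbln1 and Loxl1 differed least relative to the fibroblast markers, by 0.00 (95% interval -0.32 to 0.33) and 0.01 (-0.33 to 0.35) on the log2 scale. Eln differed by -0.24 (-0.54 to 0.07, exact permutation p = 0.114) and Lox by -0.24 (-0.58 to 0.10, exact permutation p = 0.171). These are 19 relative differences in all, 10 to the markers and 9 to Eln, and with the gene's own spread 0 were called. Relative to Eln that setting called 0 of 13079 genes higher and 3 lower (0.0229%), so the 0 there says little of these 9 genes. In limma, Mfap4 was called higher relative to the fibroblast markers without hSKP2-KI mouse 4 (0.66) or WT mouse 2 (0.55). With any other mouse left out it was not called, and it was lowest without hSKP2-KI mouse 2 (0.19). Eln and Lox were called lower without hSKP2-KI mouse 2 (-0.32 each). Mfap4 and Mfap5 were called higher with smooth muscle markers as the reference (0.57 and 0.41). The shares of all tested genes called in these fits are not given here.

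**Figure D3:**
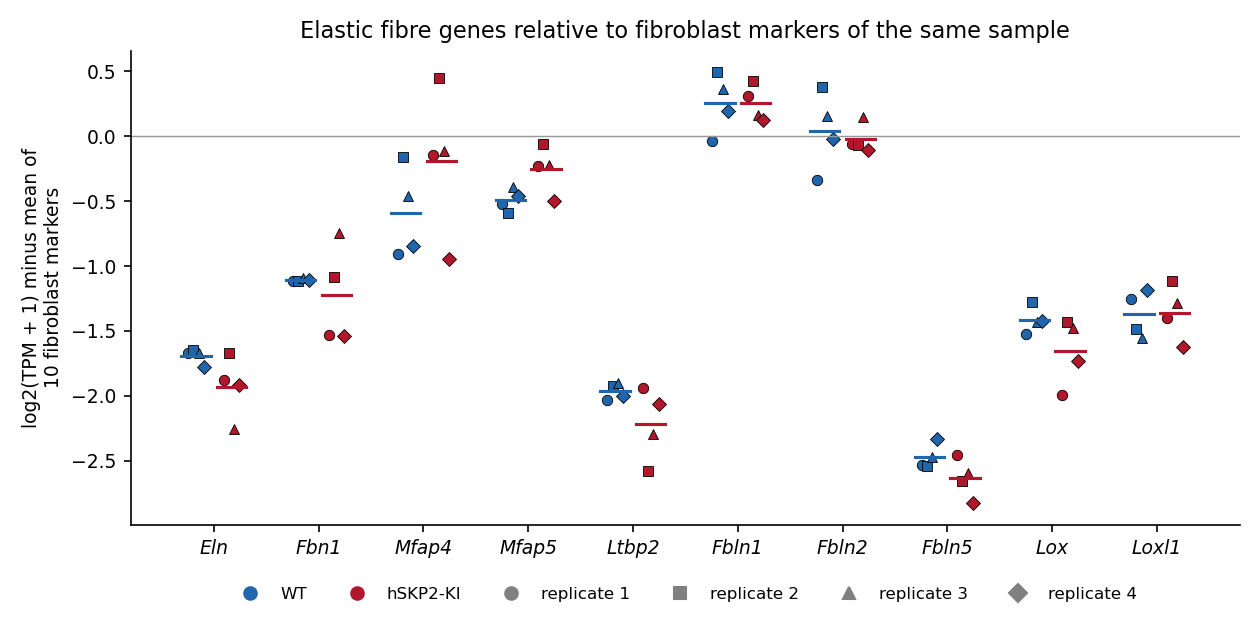
Level of each elastic fibre gene minus the mean of 10 fibroblast markers in the same sample, both as log2(TPM + 1), in 4 WT (blue) and 4 hSKP2-KI (red) mice, with symbols for the replicate number and lines for the mean. The genotypes overlap for every gene, and the points of Mfap4 spread the most, from -0.95 to 0.45.

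Other cell types were measured by lists of markers, whose part in the results was not tested. Counts of called markers stand against the 32.7% of all tested genes called higher as deposited and the 6.92% after median-ratio scaling. Of 8 endothelial markers, 7 were tested, and 5 were called higher as deposited and 2 after scaling, with a summed TPM of 46.5 to 77.9 in hSKP2-KI and 28.2 to 41.0 in WT mice. Of 8 macrophage markers, 6 were called higher and 0 after median-ratio scaling (5 with an unadjusted limma p under 0.05), with sums of 214 to 436 and 94.8 to 197 TPM and hSKP2-KI mouse 2 at the top. Mesothelial markers summed to 24.3 to 50.4 and 6.96 to 15.2 TPM, and 3 of the 5 were tested and called higher, 2 of them after scaling. Upk1b made up most of these sums, at 20.9 to 43.8 TPM in hSKP2-KI and 6.33 to 13.3 TPM in WT mice. Msln was at 2.08 to 7.77 and 0.0387 to 0.652 TPM, and Upk3b and Lrrn4 were too low to be tested. Epithelial markers summed to 2105 to 2388 and 1818 to 2053 TPM, with 3 of 8 called higher as deposited and fewer after scaling, where 1, Spint1, was called lower. Adipocyte markers overlapped between genotypes (44.6 to 210.3 and 27.4 to 169 TPM, 0 of 5 called by limma as deposited and 0 at an unadjusted p under 0.05), and so did skeletal muscle markers (256 to 437 and 161 to 311 TPM, 1 of 4 tested called higher and 0 after scaling, where 1 had an unadjusted limma p under 0.05). The called gene was Acta1, which made up most of the sum (244 to 370 and 151 to 229 TPM). The other skeletal muscle markers, Ckm, Myh4, Myh1, Tnnt3 and Mylpf, were highest in hSKP2-KI mouse 4 and WT mouse 2 within their genotypes. Tnnt3 was at 26.5 and 12.0 TPM in these mice and at most 0.935 TPM in the others. Seminal vesicle markers reached at most 0.656 TPM in any sample, with Svs2 and Pate4 at 0 in all 8. The ventral prostate markers, dominated by the secretory genes Sbp and Spink1, summed to at least 252771 TPM in every sample, and were lower in hSKP2-KI (252771 to 289693) than in WT mice (334894 to 381994).

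Most tested genes of the wider elastic fibre pathway were called higher as deposited. Of 42 further genes of the pathway in the table, 32 were tested, and 24 were called higher and 0 lower on the deposited TPM, against 32.7% and 1.23% of all tested genes. Without WT mouse 1, 12 were called. Their median log2 fold change was 0.59. After median-ratio scaling 7 were called higher (Efemp1, Efemp2, Hmcn2, Loxl3, Ltbp1, Adamts10 and Adamtsl5) and 0 lower, with a median of 0.37. Relative to the fibroblast markers 0 of the 32 were called higher and 11 lower, a smaller share than the 80.9% of all tested genes called lower on that measure, with a median of -0.32.

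Among the other fibulins, 3 of 4 tested were called under both scalings. Efemp2, which encodes fibulin-4, a protein needed to bring lysyl oxidase to tropoelastin, was at 13.5, 19.1, 12.2 and 14.6 TPM in hSKP2-KI mice 1 to 4 and at 6.24, 7.05, 6.49 and 7.77 TPM in WT mice 1 to 4. The genotypes were widely separated, and the log2 fold change was 0.99 (standard error 0.13, limma adjusted p = 0.00117), under median-ratio scaling 0.75 with an adjusted p of 0.00642. Efemp1, which encodes fibulin-3, rose from 27.4 ± 3.22 to 45.6 ± 5.96 TPM (SD, n = 4 each) and had the highest mean of the fibulin genes, within the range of Fbln1 in hSKP2-KI mice and overlapping it in WT mice. Hmcn2, which encodes a hemicentin, rose from 1.20 ± 0.353 to 3.92 ± 1.99 TPM, and Fbln7 was at 4.37 ± 0.903 and 5.69 ± 1.79 TPM (log2 fold change 0.30, adjusted p = 0.202).

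Of the other microfibril genes, 4 of 6 tested were called as deposited and 0 after median-ratio scaling, where 3 had an unadjusted limma p under 0.05. Emilin1, which encodes a protein at the interface of elastin and microfibril, rose from 11.0 ± 1.17 to 17.7 ± 3.98 TPM (log2 fold change 0.62, limma adjusted p = 0.00936), and Emilin2 rose from 3.76 ± 0.733 to 7.61 ± 2.35 TPM (0.83, adjusted p = 0.0108). Mfap2, whose product MAGP-1 is the close relative of that of Mfap5, was at 1.38, 3.38, 1.64 and 2.02 TPM in hSKP2-KI mice 1 to 4 and at 1.24, 1.29, 1.01 and 1.66 TPM in WT mice 1 to 4. It was not called (log2 fold change 0.40, adjusted p = 0.113), and its WT mean of 1.30 TPM was far below the 12.4 TPM of Mfap5. Fbn2, the fibrillin of development, was too low to be tested, and its mean was lower in hSKP2-KI (0.656 ± 0.291 TPM) than in WT mice (1.23 ± 0.375 TPM), with overlap. Also too low to be tested were Emilin3, Hmcn1, Tll1, Adamts17, Adamtsl2, Adamtsl3, Elane and Prtn3.

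All 3 other latent TGF-beta binding proteins were called higher as deposited. Ltbp1, which anchors latent TGF-beta to microfibrils, was at 11.8, 14.1, 13.5 and 12.0 TPM in hSKP2-KI mice 1 to 4 and at 4.58, 5.32, 7.28 and 6.59 TPM in WT mice 1 to 4. Its groups lay far apart, and it was called under both scalings (log2 fold change 1.01, adjusted p = 0.00110, and 0.77, adjusted p = 0.00667, limma). Ltbp3 and Ltbp4 were the more abundant relatives, at 75.4 ± 9.96 and 97.9 ± 10.9 TPM in hSKP2-KI and 59.8 ± 5.17 and 70.8 ± 18.0 TPM in WT mice (SD, n = 4 each). Their log2 fold changes were 0.33 and 0.49 as deposited (adjusted p = 0.0320 and 0.0302) and 0.06 and 0.22 after median-ratio scaling (adjusted p = 0.718 and 0.278).

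Of the other lysyl oxidases and the genes that supply them, 4 of 5 tested were called as deposited, and Loxl3 under both scalings. Loxl3 rose from 2.87 ± 0.269 to 5.11 ± 0.618 TPM (log2 fold change 0.66, limma adjusted p = 0.00359), and Loxl2 from 3.30 ± 0.641 to 6.84 ± 2.28 TPM (0.83, adjusted p = 0.0118). Bmp1, the protease that processes lysyl oxidase and procollagen, rose from 15.7 ± 2.30 to 25.9 ± 5.43 TPM (0.68, adjusted p = 0.00722). Atp7a, the copper transporter that loads lysyl oxidases, rose from 8.62 ± 0.951 to 12.4 ± 1.71 TPM (0.48, adjusted p = 0.0131). Loxl4 was at 1.37 ± 0.373 and 1.88 ± 0.327 TPM and was not called. Of the fibrillin-associated ADAMTS and ADAMTS-like genes, 3 of 5 tested were called as deposited, and Adamts10 (0.74, adjusted p = 0.00608) and Adamtsl5 (0.75, adjusted p = 0.00629) under both scalings.

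Genes that degrade elastin were also higher as deposited. Of 9 in the table, 6 were tested, 5 called higher and 0 lower, and 0 were called after median-ratio scaling, where 4 had an unadjusted limma p under 0.05. Ctss, which encodes the elastolytic protease cathepsin S of macrophages, was at 28.4, 98.3, 31.2 and 20.6 TPM in hSKP2-KI mice 1 to 4 and at 11.4, 15.1, 22.0 and 15.0 TPM in WT mice 1 to 4. Mouse 4 of the hSKP2-KI group was within the WT range and mouse 2 far above it (log2 fold change 1.20, limma adjusted p = 0.0362). Mmp12, macrophage elastase, was not tested because it was under 1 TPM in most mice, and was at 3.07, 52.4, 2.40 and 0.157 TPM in hSKP2-KI mice 1 to 4 and between 0.206 and 0.358 TPM in WT mice. Mmp7 rose from 66.2 ± 22.2 to 149 ± 73.7 TPM (1.08, adjusted p = 0.0289) and Ctsk from 4.03 ± 1.12 to 11.9 ± 8.72 TPM (1.18, adjusted p = 0.0266). Mouse 2 of the hSKP2-KI group was highest for Ctsk too, at 24.8 TPM, and without it the log2 fold changes of Ctss and Ctsk were 0.73 and 0.78. The call of Ctsk was lost without WT mouse 1 or 3, and that of Ctss without hSKP2-KI mouse 3 or WT mouse 1, 2 or 4. The high Mmp12 and Ctss of hSKP2-KI mouse 2 went with its macrophage marker sum of 436 TPM, the highest of the 8, and the part of those cells was not tested. Of the elastin receptor complex, Ctsa and Neu1 were called as deposited (0.42 and 0.23) and Glb1 was not (0.14, adjusted p = 0.210), and under median-ratio scaling Neu1 and Glb1 had log2 fold changes of -0.03 and -0.13 that were not called.

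**Figure D4:**
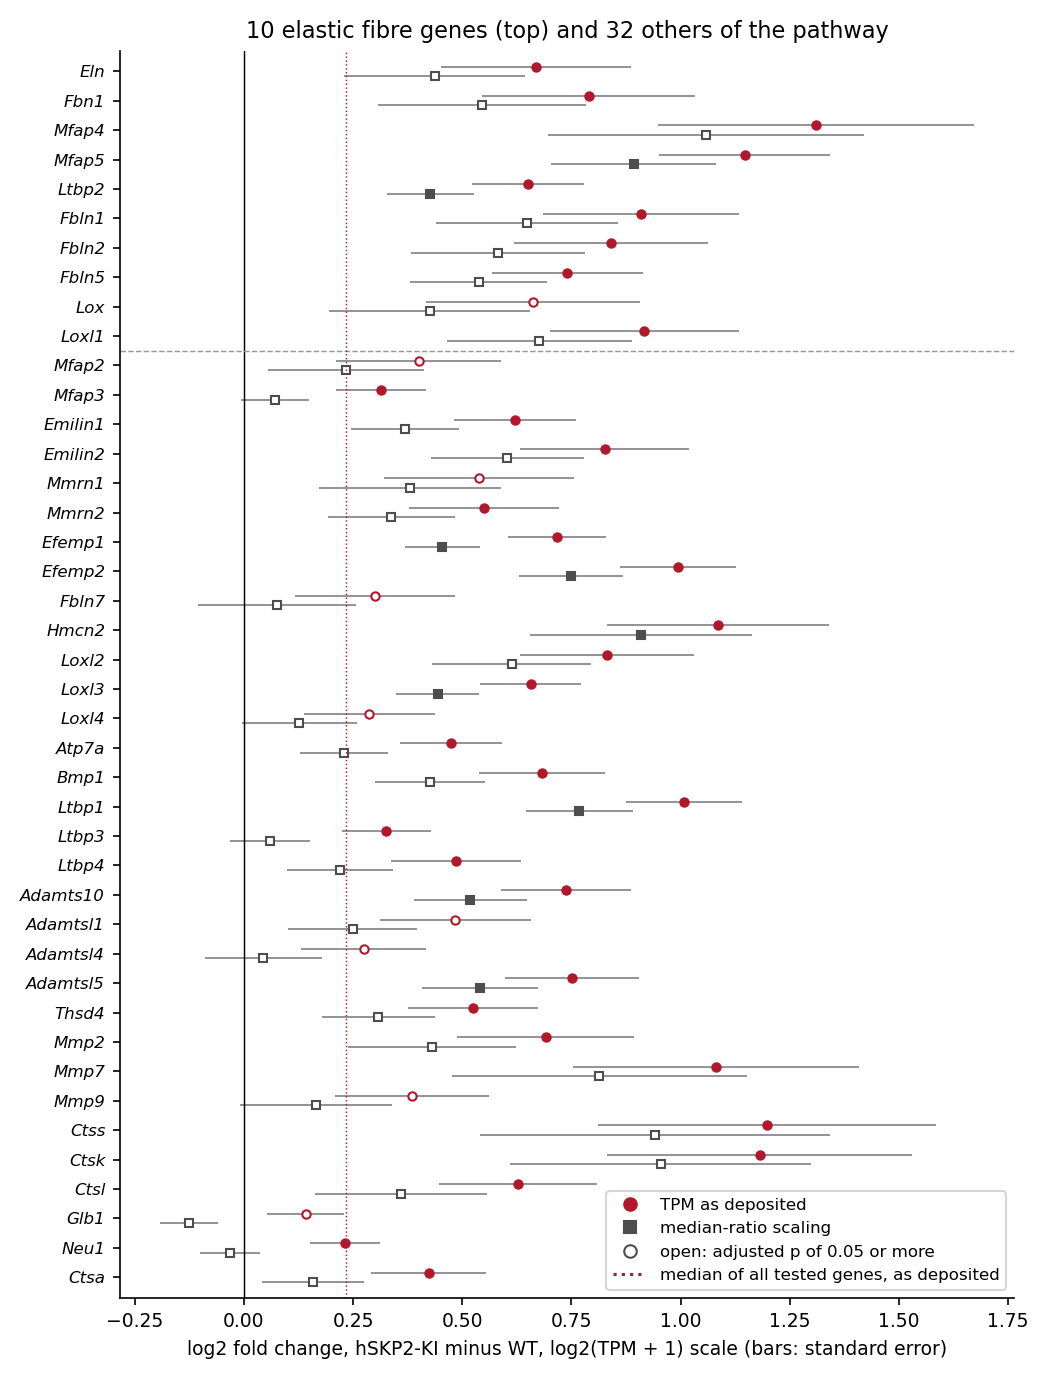
Log2 fold change between hSKP2-KI and WT mice with its standard error for the 10 elastic fibre genes (above the dashed line) and 32 other genes of the pathway, on the TPM as deposited (red circles) and after median-ratio scaling (grey squares), with filled symbols for an adjusted p under 0.05. The 10 genes lie between 0.65 and 1.31 as deposited, to the right of the median of all tested genes at 0.23, and 2 of their 10 squares are filled.

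Likeness of pattern was measured as the root-mean-square difference over the 8 samples between a gene and the mean of the 10 elastic fibre genes, both as log2(TPM + 1) and centred. Within the 10 genes, Fbln1 was closest to the common pattern (0.11 log2 units) and Mfap4 farthest (0.39), with Ltbp2 at 0.27. Outside the pathway lists the 8 most alike genes were the collagens Col5a1 (0.070), Col4a2 (0.080), Col5a2 (0.087) and Col6a2 (0.098), together with Ssc5d (0.088), Pcolce (0.090), Fstl1 (0.093) and Cygb (0.096). Col5a1 was at 14.3 TPM on average in hSKP2-KI and 7.65 TPM in WT mice, a log2 fold change of 0.77 compared to 0.79 for Fbn1. These genes were chosen for their closeness out of all tested genes, so their distances are a description, over 8 samples that also differ in their fibroblast marker level.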

How the data were processed

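The authors sequenced poly-A mRNA of the ventral lobes, from 4 mice of each genotype, with paired-end reads, one library per mouse, so replicates are separate mice. The authors mapped the reads in CLC software to the mouse genome (mm10 and GRCm38 are named in the submitters' processing notes) and deposited TPM per gene. The software version, annotation and strand setting are not given in the sources used here. TPM carry no read counts. The study's methods give a nominal number of read pairs, but the mapped reads behind each library are not known from the deposited TPM, so no count model was used. The table holds 0 columns of other samples.

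Genes with at least 1 TPM in at least 4 of 8 samples were tested on log2(TPM + 1) with limma 3.58.1 in R 4.3.3 (mean-variance trend, Benjamini-Hochberg over all 13080 genes, threshold 0.05). The added 1 makes the fold changes of low genes smaller than their TPM ratio. Median-ratio scaling divided each sample by the median ratio of its genes to their geometric mean. Relative levels subtracted the log2 level of Eln, or the mean of 10 fibroblast markers, in the same sample. The fit was checked on simulated data in which each gene varied independently, so the check does not cover shifts shared by many genes of a sample. The genes named are the 10 members, the further pathway genes, the marker genes and the 8 most alike genes. Members and lists were chosen with earlier results of these data known. Ctsv is not a gene of the table, so 42 of 43 further genes were found. The values of 1 epithelial marker are not reported here. Overlapping genes were read from GENCODE M21. Plots were made in Python 3.11.15 (matplotlib 3.10.9).

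The alternatives were 3 other scalings (median-ratio, quantile, and a new total after removing the 20 most abundant genes), an added 0.1 in place of 1, testing without a filter or with a mean of at least 5 TPM, the replicate number as a block, a robust empirical Bayes step, smooth muscle markers as reference and each sample left out. Median-ratio scaling without hSKP2-KI mouse 2, and each gene's own spread (6 residual degrees of freedom) with two-sided exact permutation tests for relative levels, were added after seeing the data. The labels give no sequencing batch.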

Additional observations from a re-analysis of the deposited data

Results flagged for a closer look

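In 2 of the 20 groups of 4 samples formed by the 10 genes and both genotypes, 1 sample was far from the other 3 by Dixon's test, which chance gives in about 1 of 20 groups. Fbln1 in hSKP2-KI mouse 2 was at 64.8 TPM, while the other 3 hSKP2-KI mice lay between 34.3 and 36.3 TPM, a gap of 0.912 of the range on the log2(TPM + 1) scale. Without this mouse the log2 fold change of Fbln1 was 0.69 (limma adjusted p = 0.0224) in place of 0.91. Mfap5 in WT mouse 1 was at 10.1 TPM, while the other 3 WT mice lay between 13.0 and 13.3 TPM, a gap of 0.907 of the range on that scale. Without it the log2 fold change of Mfap5 was 1.06 (limma adjusted p = 0.0121) in place of 1.15.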

How the results depend on the processing

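The 10 genes kept a positive log2 fold change in all 169 fits of the alternatives, but calls depended on the scaling. On the deposited TPM, 9 were called higher, and 6 to 10 with a sample left out, the lowest without WT mouse 1. With no filter, which tests many more genes, 5 were called, and Eln, Fbn1, Mfap4 and Fbln2 had limma adjusted p-values of 0.0929, 0.0812, 0.0613 and 0.0520. The robust step put Mfap4 at 0.0606. Median-ratio scaling, quantile normalization and rescaling without the 20 most abundant genes gave 2 each, and median-ratio scaling without hSKP2-KI mouse 2 gave 1. Of the further pathway genes, 24 became 13 with no filter, 7, 4 and 7 under the 3 scalings, 5 under the added one, and 12 to 24 with a sample left out, the lowest without WT mouse 1 (15 without WT mouse 3 or 4). Over all genes, 4272 higher and 161 lower became 905 and 556, 709 and 608, and 892 and 438 under the 3 scalings, 586 and 358 under the added one, and 2839 to 4548 and 114 to 154 with a sample left out, 2839 without WT mouse 1. Relative to the fibroblast markers, the 0 higher became 2 with smooth muscle markers, 1 under the replicate block and 0 to 1 with a sample left out. The 0 lower became 0 to 2 with a sample left out, the 2 without hSKP2-KI mouse 2. In the main fits relative to the markers and to Eln, limma took the spread as known. Whether it did so in the alternatives was not recorded. With each gene's own spread 0 were called relative to the markers or to Eln. Of all 13079 genes tested relative to Eln, that setting called 0 higher and 3 lower.

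In the alternatives where a sign changed, the changed value was not called, though Neu1 and Ltbp3 were called as deposited. Fbln7 was at -0.020 and Loxl4 at -0.0016 under quantile normalization, Adamtsl4 at -0.033. With the added setting, Fbln7, Ltbp3, Adamtsl4, Glb1 and Neu1 were at -0.091, -0.019, -0.038, -0.098 and -0.067. Glb1 was at -0.13, -0.092 and -0.10 and Neu1 at -0.031, -0.0042 and -0.010 under the 3 scalings. With smooth muscle markers Fbn1, Fbln2 and Fbln5 were at 0.053, 0.10 and 0.0050, and a pseudocount of 0.1 put Fbln1 at -0.032 relative to fibroblast markers and Ltbp2 at 0.011 relative to Eln. With a sample left out, levels relative to fibroblast markers ranged from -0.093 to 0.082 for Fbln1, -0.19 to 0.047 for Fbln2 and -0.069 to 0.10 for Loxl1, and those relative to Eln from -0.15 to 0.24 for Fbn1, -0.10 to 0.19 for Ltbp2, -0.049 to 0.17 for Fbln5 and -0.17 to 0.12 for Lox. The cause of these changes was not tested.

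The labels give no pairing of mice of the same number. Their deviations from the genotype means correlated at 0.22, -0.11, 0.17 and -0.01 across genes, which does not settle whether they share a litter or a batch. With the replicate block all 10 genes were called as deposited, Lox with an adjusted p of 0.0106. TPM without read counts do not give the mapped reads of each library, and 4 mice per genotype limit the precision.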
